A study of Mus musculus with 7 samples.

Results

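The expression of 40 genes that act in mitosis was compared between thymocytes of mice that carry a γδ T cell receptor. The genes were taken by name: every probe on the array whose gene name, or an older alias such as Cdc2a for Cdk1, was one of the 40. They had 65 probes among the 41174 on the array, and all 40 were among the 23593 genes tested. On each of the 7 arrays the probe used for each gene lay well above background in both channels. Each 2-colour array held RNA of flow-sorted DN4 cells from Rag2-/- mice with the KN6 γδ receptor transgene in one channel, and RNA of DN3 cells from Rag2-/- mice without the transgene in the other. The DN4 cells were labelled Lig+ (4 arrays) or Lig- (3 arrays), and all mice were of strain BALB/c. Rag2 deficiency, which stops rearrangement of endogenous receptor genes, was thus shared by the transgenic and the control mice. Thymocytes that carry neither CD4 nor CD8 pass through the DN3 stage before they reach DN4. The labels do not say why the ligand is missing in Lig-, give no age or promoter of the transgene, and do not say whether animals were pooled or whether the DN3 RNA was 1 preparation.

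Values are log2 ratios of DN4 over DN3, so that 1 stands for a doubling. Fitted ratios are given ± SE from limma over all genes and arrays (n = 4 Lig+ and n = 3 Lig-), and a gene passed the test at a Benjamini-Hochberg adjusted p under 0.05. DN3 was the partner in every ratio and counted as 1 control sample: variation of its channel between arrays enters the spread of the ratios, but DN3 was not measured as a group of separate samples. Per the series text the replicates are biological, and 1 array of either group has its dyes swapped. If a dye swap reused RNA, p-values measure partly technical spread. Slides 1, 2 and 3 each held a Lig+ and a Lig- array, numbered here as replicates by slide, and slide 4 held Lig+ replicate 4. Slides 1 and 2 were scanned on one day (scan day 1) and slides 3 and 4 on another (scan day 2), per the file headers. The source names of the scan day 2 arrays leave out DN4, so that stage was taken there from the growth protocol. The DN4 RNA carried the other dye on slide 1 alone. With a dye term in the fit, a fitted ratio lies between the dye orientations and is not the plain mean of its arrays.

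Each array had 45018 spots. The share of probes above background was 72.9% to 84.9% in the DN4 channel and 75.8% to 83.7% in the DN3 channel. Of 17 genes of the DN3 and DN4 stages, 9 were lower and 3 higher in Lig+ than in DN3, and 10 were lower and 4 higher in Lig-. Array medians of the 17 genes were -0.35, -1.15, -2.26 and -2.86 on Lig+ replicates 1 to 4. They were -0.44, -2.19 and -2.36 on Lig- replicates 1 to 3. The list mixes genes of both stages, so these medians are not a score of the stage. Il2ra, which encodes CD25 and marks DN3 cells, lay at -5.29 ± 0.20 in Lig+ (adjusted p = 1.1e-05) and -5.45 ± 0.22 in Lig- (adjusted p = 2.2e-05). Of 12 macrophage genes, 10 were lower and 1 higher in Lig+, and 11 were lower in Lig-. Of 9 granulocyte genes measured, 5 and 3 were lower. Among 9 B cell genes, 4 were lower in Lig+, and 3 were higher and 2 lower in Lig-. Of 8 erythroid genes measured, 2 were higher and 2 lower in Lig+, and 1 was higher in Lig-. Of 9 stroma genes, 2 were higher and 2 lower in Lig+, and 3 were higher and 4 lower in Lig-. Over all genes 17.4% were higher and 18.9% lower in Lig+, and 16.3% and 15.0% in Lig-. The part of these markers in the results below was not tested.

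Cells enter mitosis when cyclin B and Cdk1 become active, align their chromosomes on a spindle under the watch of a checkpoint, and separate them once the anaphase-promoting complex (APC) is released. The chromosomal passenger complex (CPC) corrects attachments at centromeres and then moves to the spindle midzone, where cytokinesis is set up. Transcripts of these genes accumulate in G2 and mitosis and are low in resting cells, so in thymocytes they mark proliferation, which follows receptor signals at the DN3 stage. Many of their promoters carry a cell cycle genes homology region (CHR), bound by the DREAM complex in resting cells and by complexes of Mybl2 and Foxm1 in dividing ones, often beside CCAAT boxes bound by NF-Y. In RNA of whole sorted samples, fewer dividing cells and less mitotic RNA per dividing cell cannot be told apart.

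Promoter entries (250 bases before to 50 after the start; RefSeq, GRCm38.p6) were found for 33 of the 40 genes, as 35 entries. Ccna2, Aurkb, Kif20a, Tpx2, Foxm1, Incenp and Pbk have no entry in that table. The CHR was searched for as TTTGAA or TTCGAA and NF-Y's box as CCAAT, on both strands. A CHR-type element stood in 28 of the 35 entries (80.0%), against 19.2% of all 32851 entries. Within 50 bases of the start it stood in 74.3% of the entries of the mitotic genes and in 5.3% of all entries. CCAAT stood in 80.0% and 37.4%, and both elements stood together in 71.4% and 7.5%. Genes of DNA replication had a CHR-type element in 18.4% of 38 entries. The promoters of Cenpa, Bub1, Hmmr, Racgap1 and Mki67 are printed because these genes had the largest fitted ratios in Lig+ among those past the test whose entry held a CHR-type element. Each stretch runs 5′ to 3′ along the gene's strand from 130 bases before the start through the first 30 bases from it, with CHR-type elements and CCAAT (or its reverse complement) in capitals. They lie at chr5:30666756-30666915 (+) for Cenpa, chr2:127831830-127831989 (-) for Bub1, chr11:40733408-40733567 (-) for Hmmr, chr15:99651627-99651786 (-) for Racgap1 and chr7:135716350-135716509 (-) for Mki67.
Cenpa: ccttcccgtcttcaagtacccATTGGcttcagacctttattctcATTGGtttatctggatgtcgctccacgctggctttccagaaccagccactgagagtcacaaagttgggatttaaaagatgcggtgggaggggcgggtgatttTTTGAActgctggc
Bub1: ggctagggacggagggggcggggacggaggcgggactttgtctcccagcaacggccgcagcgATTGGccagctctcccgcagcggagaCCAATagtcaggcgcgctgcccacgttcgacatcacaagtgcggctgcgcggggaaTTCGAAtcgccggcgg
Hmmr: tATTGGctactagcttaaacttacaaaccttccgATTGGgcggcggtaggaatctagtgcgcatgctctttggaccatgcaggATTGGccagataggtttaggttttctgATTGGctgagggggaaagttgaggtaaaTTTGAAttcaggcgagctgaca
Racgap1: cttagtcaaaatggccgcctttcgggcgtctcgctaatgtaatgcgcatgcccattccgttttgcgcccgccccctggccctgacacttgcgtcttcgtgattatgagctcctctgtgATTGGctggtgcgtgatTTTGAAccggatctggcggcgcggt
Mki67: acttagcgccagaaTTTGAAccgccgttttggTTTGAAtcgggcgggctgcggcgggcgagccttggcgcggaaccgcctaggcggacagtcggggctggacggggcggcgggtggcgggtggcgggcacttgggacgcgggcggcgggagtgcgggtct
In Cenpa, Bub1, Hmmr and Racgap1 the CHR-type element began 16, 14, 8 and 5 bases after the start base. In Mki67 a pair of them lay upstream, the nearer one 98 bases before the start, outside the window of 50 bases. A match of these letters describes the sequence and does not show that a factor binds there.

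**Figure D1:**
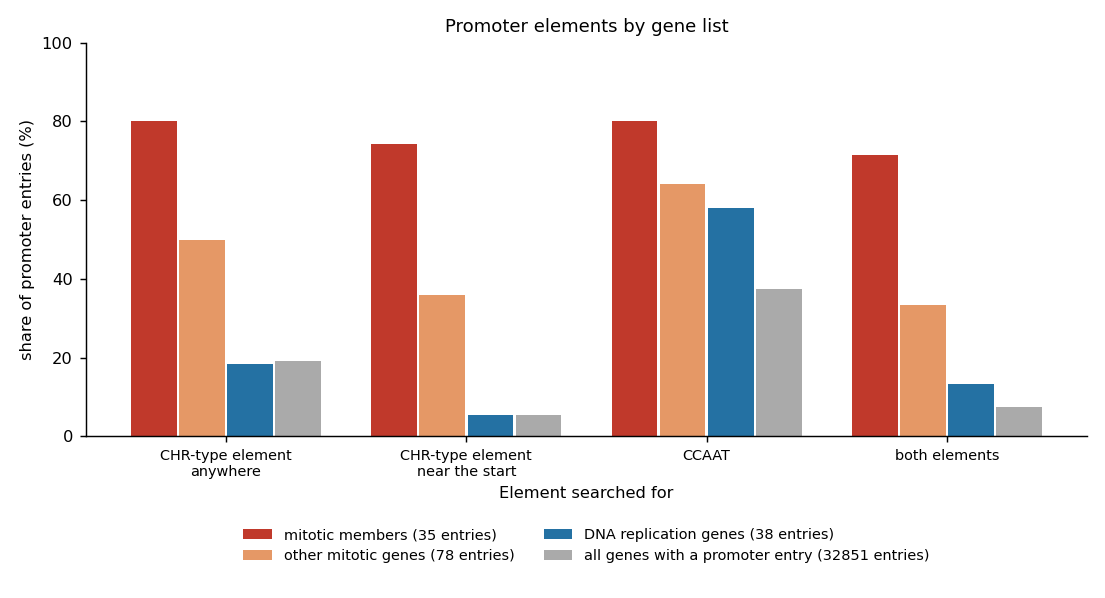
Share of promoter entries (vertical axis, percent) that hold a CHR-type element anywhere in the entry or within 50 bases of the start, CCAAT, or both elements, for 4 sets of genes given by bar colour. The bars of the mitotic genes stand at 80.0%, 74.3%, 80.0% and 71.4%, and those of all genes at 19.2%, 5.3%, 37.4% and 7.5%.

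Mitotic transcripts were more abundant in Lig+ DN4 cells than in DN3 cells. Of the 40 mitotic genes, 24 were higher in Lig+ than in DN3 and 0 were lower (0 lower also at an unadjusted p under 0.05), while 36.3% of all genes tested passed (17.4% higher and 18.9% lower). All 40 fitted ratios were above 0, against 11819 of 23593 genes, and their median was 0.77, against 0.00 over all genes. They ran from 0.07 for Pbk to 1.54 for Cenpa. The array medians of the 40 genes were 0.42, 0.59, 1.39 and 1.19 on Lig+ replicates 1 to 4. The medians of replicates 3 and 4 (scan day 2) were both above those of replicates 1 and 2 (scan day 1). A shift between the days is set against all genes below. The count of 24 rested on single arrays: it was 0 without Lig+ replicate 1 (5 at an unadjusted p under 0.05), 5 without Lig+ replicate 3, 7 without Lig+ replicate 4 and 9 without Lig- replicate 1, and the median stayed between 0.68 and 0.91 over the 7 omissions. Lig+ replicate 1 was the only Lig+ array of its dye orientation, so without it the dye term rested on Lig- replicate 1. With scan day as a term in the fit, 39 genes were higher and 0 lower (22.8% and 25.0% of all genes), with Cdca5 as the exception (0.28 ± 0.10, adjusted p = 0.068). There the dye and day terms took up the differences between slides 1 and 2 and between the days. The p-values of that fit leave out this spread. Fitted on scan day 1 alone, 34 genes were higher and 2, Pbk and Anln, lower (31.5% and 29.6% of all genes). Slides 1 and 2 differed in dye orientation, so in that fit the dye term took up the difference between slides. Its p-values leave out this spread. On scan day 2 alone 40 were higher and 0 lower (21.1% and 25.3%). In these 3 fits 0 further genes were lower at an unadjusted p under 0.05. The 24 genes passed on either day, in fits with 1 residual degree of freedom each.

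**Figure D2:**
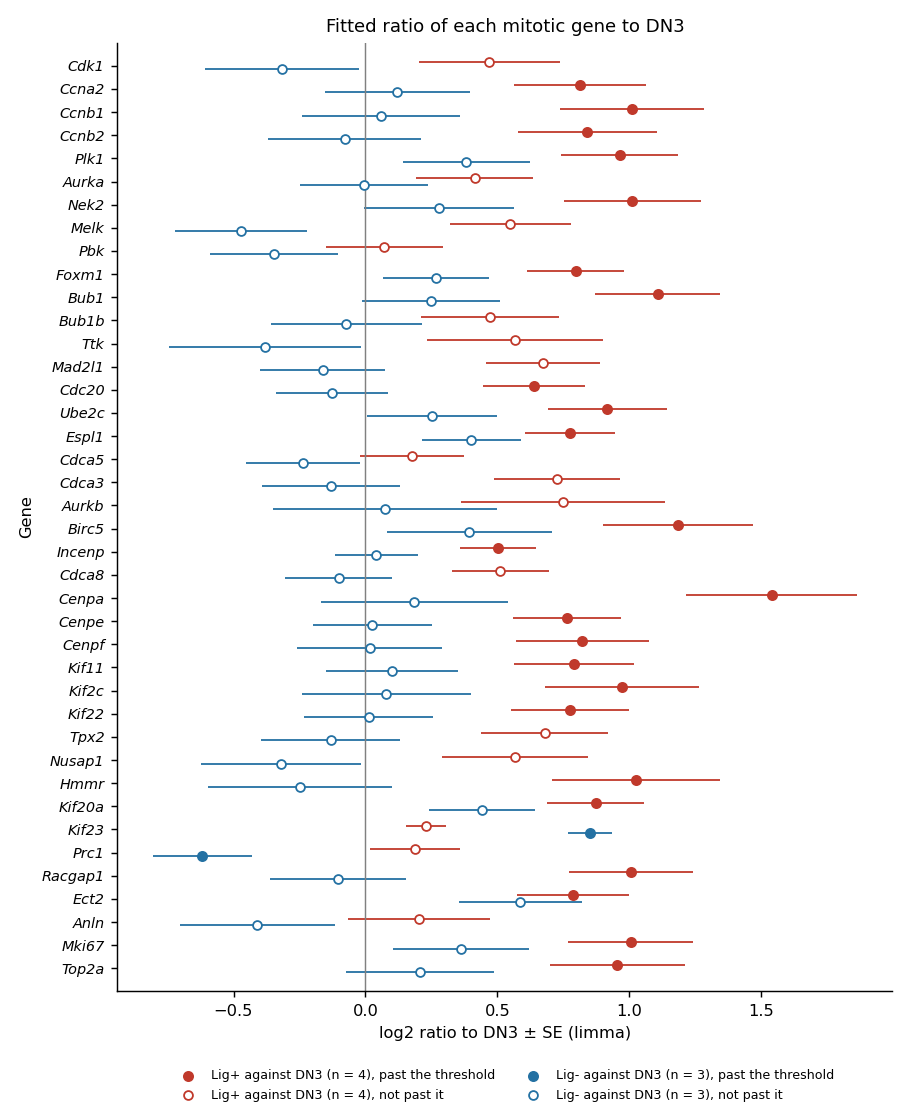
Fitted log2 ratio to DN3 (horizontal axis, points with SE bars from limma) of the 40 mitotic genes (vertical axis) for Lig+ (red, n = 4 arrays) and Lig- (blue, n = 3 arrays). Filled points passed the test: 24 for Lig+, all to the right of 0, and 2 for Lig-, Kif23 to the right and Prc1 to the left.

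Among 10 genes of cyclins, entry kinases and their activator, 6 were higher in Lig+: Ccna2, Ccnb1 and Ccnb2, which encode cyclins A2, B1 and B2, the kinases Plk1 and Nek2, and Foxm1, a transcription factor of mitotic genes. Nek2, a kinase that helps separate centrosomes, had ratios of 0.55, 0.79, 1.88 and 1.67 on Lig+ replicates 1 to 4 and -0.11, 0.09 and 1.29 on Lig- replicates 1 to 3. The Lig+ and Lig- arrays overlapped, since Lig- replicate 3 lay above Lig+ replicates 1 and 2. Its fitted ratio was 1.01 ± 0.26 in Lig+ (2.02-fold, adjusted p = 0.024) and 0.28 ± 0.28 in Lig- (adjusted p = 0.53). Pbk, a kinase active in mitotic cells, had the smallest ratio of the group, with -0.43, -0.07, 0.84 and 0.85 on the Lig+ arrays and -0.75, -0.39 and 0.55 on the Lig- arrays. It was below 0 on every array of scan day 1 and above 0 on every array of scan day 2, and its fitted ratio in Lig+ was 0.07 ± 0.22 (adjusted p = 0.84). Cdk1 itself, the kinase that drives entry, did not pass (0.47 ± 0.27, adjusted p = 0.23), and neither did Aurka (0.41 ± 0.22) or Melk (0.55 ± 0.23).

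Of 9 genes of the spindle checkpoint, the APC and cohesion, 4 were higher in Lig+: Bub1, Cdc20, Ube2c and Espl1. Cdc20 activates the APC, Ube2c is its ubiquitin-conjugating enzyme, and Espl1 encodes separase, which cuts cohesin. Bub1, a checkpoint kinase at kinetochores, had ratios of 0.79, 0.96, 1.90 and 1.49 on the Lig+ arrays and -0.15, 0.03 and 1.23 on the Lig- arrays. On slides 1 to 3 the Lig+ array lay above its Lig- partner, and the fitted ratios were 1.11 ± 0.24 (2.15-fold, adjusted p = 0.012) and 0.25 ± 0.26 (adjusted p = 0.54). Cdca5 encodes sororin, which protects cohesion between sister chromatids. Its ratios were -0.04, 0.12, 0.69 and 0.49 on the Lig+ arrays and -0.56, -0.50 and 0.61 on the Lig- arrays, with a fitted value of 0.18 ± 0.20 in Lig+ (adjusted p = 0.55). Bub1b, Ttk, Mad2l1 and Cdca3 had fitted ratios of 0.47 to 0.73 in Lig+ that did not pass.

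Of 7 genes of the CPC and the centromere, 5 were higher in Lig+. Cenpa, the histone H3 variant that marks centromeres, had the largest ratio of all 40 genes, with 1.07, 1.03, 2.56 and 2.42 on the Lig+ arrays and -0.28, 0.02 and 1.28 on the Lig- arrays. The Lig+ arrays of scan day 2 lay above every Lig- array, and those of scan day 1 lay above both Lig- arrays of that day. The fitted ratio was 1.54 ± 0.32 (2.91-fold, adjusted p = 0.011) in Lig+ and 0.19 ± 0.36 in Lig- (adjusted p = 0.76). Birc5, which encodes the CPC subunit survivin, followed with 1.18 ± 0.29 (adjusted p = 0.019). Incenp, the scaffold of the CPC, had the smallest ratio of the group, with 0.32, 0.42, 0.90 and 0.79 on the Lig+ arrays, all above 0, and -0.20, -0.09 and 0.63 on the Lig- arrays. It passed in Lig+ (0.50 ± 0.14, adjusted p = 0.035). Cenpe, a kinetochore motor, and Cenpf, a kinetochore protein, also passed, and the other CPC subunits Aurkb (0.75 ± 0.39) and Cdca8 (0.51 ± 0.18) did not.

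Of 6 genes of spindle motors and microtubule-binding proteins, Kif11, Kif2c, Kif22 and Hmmr were higher in Lig+. Kif11 slides antiparallel microtubules apart, Kif2c depolymerises microtubules at centromeres, and Kif22 pushes chromosome arms outward. Hmmr, a microtubule-binding protein, had ratios of 0.39, 0.56, 2.10 and 2.01 on the Lig+ arrays and -0.56, -0.38 and 0.67 on the Lig- arrays. Its fitted ratio was 1.03 ± 0.32 in Lig+ (2.04-fold, adjusted p = 0.047) and -0.25 ± 0.35 in Lig- (adjusted p = 0.66). Nusap1, which bundles spindle microtubules, had ratios of -0.06, 0.37, 1.62 and 1.44 on the Lig+ arrays and -0.79, -0.38 and 0.77 on the Lig- arrays. Its range over the Lig+ arrays was wide, and the fitted 0.57 ± 0.28 did not pass (adjusted p = 0.17). Tpx2, which activates Aurora A on the spindle, lay at 0.68 ± 0.24 (adjusted p = 0.072).

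Of 6 genes of the midzone and cytokinesis, Kif20a, Racgap1 and Ect2 were higher in Lig+. Racgap1, the GTPase-activating subunit of the centralspindlin complex, had ratios of 0.70, 0.63, 1.63 and 1.59 on the Lig+ arrays and -0.30, -0.37 and 0.61 on the Lig- arrays. Every Lig+ array was above every Lig- array, which held for this gene alone among the 40 and for 10.2% of all genes. Its fitted ratio was 1.01 ± 0.24 in Lig+ (2.01-fold, adjusted p = 0.017) and -0.10 ± 0.26 in Lig- (adjusted p = 0.81). Prc1 bundles antiparallel microtubules at the midzone. Its ratios were -0.17, 0.20, 0.71 and 0.65 on the Lig+ arrays and -0.89, -0.78 and 0.13 on the Lig- arrays, and its fitted ratio in Lig+ was 0.19 ± 0.17 (adjusted p = 0.46). Anln, an actin-binding scaffold of the contractile ring, also stayed near DN3 in the fit (0.20 ± 0.27, adjusted p = 0.62), with ratios of -0.40 and -0.04 on scan day 1 and 1.32 and 0.88 on scan day 2.

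The remaining genes, Mki67 and Top2a, were both higher in Lig+. Mki67, which encodes the proliferation antigen Ki-67 on mitotic chromosomes, had ratios of 0.95, 1.26, 1.53 and 0.96 on the Lig+ arrays and -0.26, 0.23 and 1.45 on the Lig- arrays. It was about as high on Lig+ replicates 1 and 2 as on replicate 4, and its fitted ratio was 1.00 ± 0.24 (2.01-fold, adjusted p = 0.017). Top2a, the topoisomerase that untangles sister chromatids, had ratios of 0.52, 0.96, 2.02 and 1.26 on the Lig+ arrays and -0.30, 0.08 and 1.31 on the Lig- arrays. Its fitted ratio was 0.95 ± 0.26 (1.94-fold, adjusted p = 0.028).

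**Figure D3:**
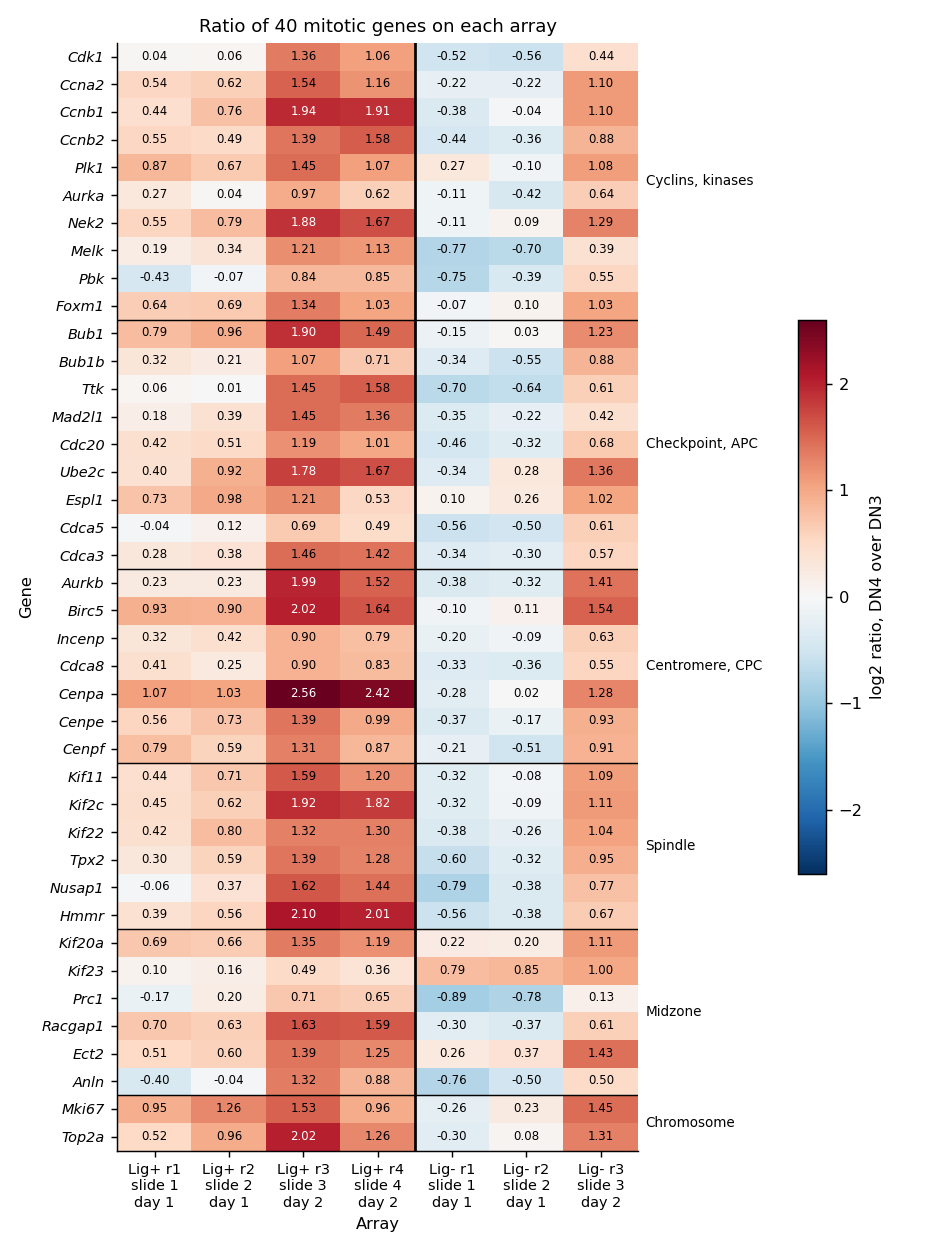
Log2 ratio of DN4 over DN3 for the 40 mitotic genes (rows, grouped by role) on each of the 7 arrays (columns, Lig+ left and Lig- right of the black line). Red cells are above 0 and blue cells below, and the 3 columns of scan day 2 are red throughout, while most cells of Lig- replicates 1 and 2 are blue.

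In Lig- DN4 cells most mitotic genes lay below DN3 on scan day 1, and all lay above it on the 1 array of scan day 2. Over the 3 arrays 1 mitotic gene was higher and 1 lower, while 31.3% of all genes passed (16.3% higher and 15.0% lower), and the median fitted ratio of the 40 genes was 0.02. The arrays differed by scan day: the medians were -0.34 and -0.24 on Lig- replicates 1 and 2 and 0.94 on Lig- replicate 3, with 5, 12 and 40 of the 40 genes above 0. Without Lig- replicate 3 the median was -0.28, and without Lig- replicate 2 it was 0.31. Fitted on scan day 1 alone, 27 genes were lower and 4 higher than DN3 (29.5% and 31.0% of all genes). In that fit too the dye term took up the difference between slides 1 and 2, so its p-values leave out this spread. On scan day 2, where Lig- has 1 array, the median fitted ratio was 0.94. With scan day as a term, 13 genes were higher and 2 lower (20.4% and 20.3% of all genes). The p-values of that fit leave out the spread between slides 1 and 2 and between the days.

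The gene higher in Lig- was Kif23, which encodes the kinesin subunit of centralspindlin, the partner of Racgap1. Its ratios were 0.79, 0.85 and 1.00 on the Lig- arrays and 0.10, 0.16, 0.49 and 0.36 on the Lig+ arrays. All Lig- arrays were above all Lig+ arrays, also across scan days, and Kif23 was the 1 gene of the 40 with that order (12.6% of all genes). Its fitted ratio was 0.85 ± 0.08 in Lig- (1.80-fold, adjusted p = 5.4e-04), which passed under every alternative run, and 0.23 ± 0.08 in Lig+ (adjusted p = 0.056). A second probe for Kif23 gave 0.89 in Lig- and 0.32 in Lig+, and did not pass between the groups (-0.56, adjusted p = 0.064 over all probes). The gene lower in Lig- was Prc1, with a fitted ratio of -0.62 ± 0.19 (0.65-fold, adjusted p = 0.049). Leaving out any of Lig+ replicates 1, 3 and 4, or either of Lig- replicates 1 and 2, ended its call (adjusted p up to 0.27), and on scan day 2 its ratio was 0.13.

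**Figure D4:**
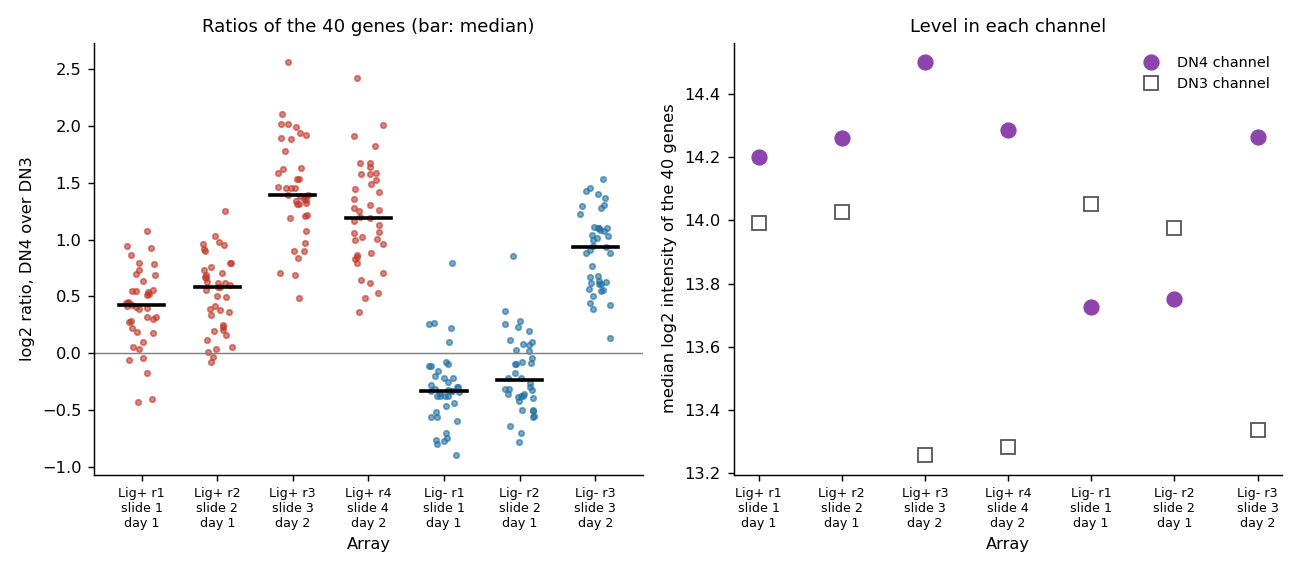
Left, log2 ratio of DN4 over DN3 of each of the 40 mitotic genes (points) on the 7 arrays, with the median as a bar. The medians are 0.42, 0.59, 1.39 and 1.19 for Lig+ (red) and -0.34, -0.24 and 0.94 for Lig- (blue). Right, the median log2 intensity of the 40 genes in the DN4 channel (filled circles) and the DN3 channel (open squares), where the DN3 channel lies between 13.98 and 14.05 on scan day 1 and between 13.26 and 13.34 on scan day 2.

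The shift between scan days was tested with a day term in the same model. Slide 1 alone had Alexa 647 on the DN4 RNA, so the dye term took up its difference from slide 2. The day term thus set slides 3 and 4 against slide 2, which shared their dye orientation. Scan day 1 rested there on slide 2, so the p-values leave out the spread between slides 1 and 2. Of the 40 genes, 34 had higher ratios on scan day 2 and 0 had lower ones (0 also at an unadjusted p under 0.05), against 6.81% higher and 9.10% lower among all genes. The median shift was 0.92, and the largest was 1.60 for Aurkb, the kinase of the CPC. Kif23 (0.22, adjusted p = 0.15), Espl1 (0.24, adjusted p = 0.60), Mki67 (0.48, adjusted p = 0.42), Cenpe, Cenpf and Top2a did not pass. The count was 0 without Lig+ replicate 2 (37 at an unadjusted p under 0.05), 2 without Lig- replicate 2 and 18 without Lig+ replicate 3.

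The shift was also read in each channel. In the DN3 channel 31 genes were lower on every array of scan day 2 than on every array of scan day 1 and 1 was higher, against 31.9% and 28.1% of all genes, with a median difference of -0.57 on the log2 intensity scale. Bub1 in the DN3 channel stood at 13.25, 13.34, 13.18 and 13.22 on the arrays of scan day 1 and at 12.11, 12.07 and 12.26 on those of scan day 2. In the DN4 channel of Lig+ arrays the median difference between the days was 0.19, and 22 genes were higher and 8 lower with no overlap (28.7% and 41.5% of all genes). Bub1 in that channel stood at 14.04 and 14.14 on scan day 1 and at 14.00 and 13.75 on scan day 2. In the DN4 channel of Lig- arrays the median difference was 0.52, and 34 genes were higher and 5 lower (39.3% and 47.7%). Slides, the version of the extraction software and possibly the RNA preparations changed with the day, and these cannot be told apart. The dye orientation changed in part too, since no array of scan day 2 had Alexa 647 on the DN4 RNA. Both days carried Lig+ and Lig- arrays, so the day does not coincide with the groups.

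Mitotic transcripts were more abundant in Lig+ than in Lig- on each slide that held both groups. Over all 7 arrays with no term for slide or day, 0 mitotic genes were higher in Lig+ (12 at an unadjusted p under 0.05) and 1 was lower, while 11.8% of all genes passed (4.81% higher and 6.97% lower). Yet 39 of the 40 fitted differences were above 0, against 11804 of 23593 genes, with a median of 0.74. On slides 1 to 3, each of which held 1 array of either group, the Lig+ ratio minus the Lig- ratio had medians of 0.74, 0.75 and 0.49, and 39, 39 and 38 of the 40 genes were above 0. In 38 genes Lig+ was higher on all 3 slides, against 28.6% of all genes. The exceptions were Kif23, which was lower in Lig+ on all 3 slides, and Ect2 on slide 3 (-0.04).

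With slide as a block, 34 mitotic genes were higher in Lig+ and 1, Kif23, was lower (9.69% and 12.7% of all genes), with a median of 0.71 and 2 residual degrees of freedom. With scan day as a term, 29 were higher and Kif23 was lower (9.96% and 13.4%), and all 29 were among the 34. The differences in the slide block were 1.22 ± 0.09 for Cenpa (adjusted p = 0.0036), 1.00 ± 0.06 for Racgap1 (adjusted p = 0.0025), 0.94 ± 0.07 for Melk, a kinase of dividing cells (adjusted p = 0.0039), and 0.85 ± 0.09 for Bub1 (adjusted p = 0.0062). For Cenpa the brighter probe, used here, did not show this in the DN4 channel on every slide. That channel stood at 14.60 in Lig+ and 14.25 in Lig- on slide 1, at 13.52 and 14.34 on slide 2 and at 15.37 and 14.14 on slide 3. The DN3 channel stood at 13.53 and 14.52, 12.49 and 14.32, and 12.81 and 12.87 on the same arrays, so on scan day 1 the difference in ratio came mainly with a lower DN3 channel on the Lig+ arrays, and on slide 2 the DN4 channel was lower in Lig+. Bub1b had the same kind of gap, with 13.02 in Lig+ and 13.77 in Lig- in the DN4 channel of slide 2 and 12.81 and 14.32 in the DN3 channel. In the other 38 genes the DN3 channels of partners on a slide differed by at most 0.36. Hmmr differed by 0.94, 0.93 and 1.43 on slides 1 to 3 (adjusted p = 0.0080 in the slide block). Cdk1 differed by 0.70 ± 0.10 (adjusted p = 0.012) and Prc1 by 0.76 ± 0.10 (adjusted p = 0.011), although neither had passed in Lig+ against DN3. Bub1b, Espl1, Cdca5, Ect2 and Mki67 did not pass. For Mki67 the differences on slides 1 to 3 were 1.20, 1.03 and 0.08, so that the slides did not give 1 size. On scan day 1 both Lig+ ratios were above both Lig- ratios in 38 genes, against 26.3% of all genes, and the reverse held in 1 (26.9%). In the DN4 channel alone the same held in 37 genes and the reverse in 1 (36.3% and 30.1% of all genes), and over all 7 arrays in 19 and 1 (11.1% and 12.0%). In the fit of scan day 1 alone 39 genes were higher and 1 lower (19.5% and 22.0% of all genes), and on scan day 2, with 1 Lig- array, 10 were higher and 0 lower (5.89% and 8.98%; 1 lower at an unadjusted p under 0.05), with medians of 0.72 and 0.34.

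Kif23 was the gene past the test between the groups in the fit without slide or day (-0.62 ± 0.11, adjusted p = 0.016). Within slides its differences were -0.70, -0.69 and -0.51, and the slide block gave -0.63 ± 0.07 (adjusted p = 0.0083). The call without a block was lost without Lig+ replicate 1 or without Lig- replicate 1 (adjusted p = 0.104 each), without Lig- replicate 2 (0.052) or without Lig- replicate 3 (0.061). The difference kept its sign under all alternatives run. In the DN4 channel Kif23 stood at 14.13, 14.24, 13.88 and 13.64 on Lig+ replicates 1 to 4 and at 14.77, 14.90 and 14.33 on Lig- replicates 1 to 3. Each Lig- array was above every Lig+ array in that channel. In the DN3 channel it stood at 14.04 and 13.97 on slide 1, 14.08 and 14.04 on slide 2 and 13.40 and 13.33 on slide 3, so the partners on a slide differed there by less than the DN4 channels did. Racgap1, the other centralspindlin subunit, stood at 13.69, 13.85, 14.32 and 14.04 on the Lig+ arrays and 12.63, 12.59 and 13.13 on the Lig- arrays in the DN4 channel, the opposite order. The promoter entry of Kif23 also held a CHR-type element and CCAAT.

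**Figure D5:**
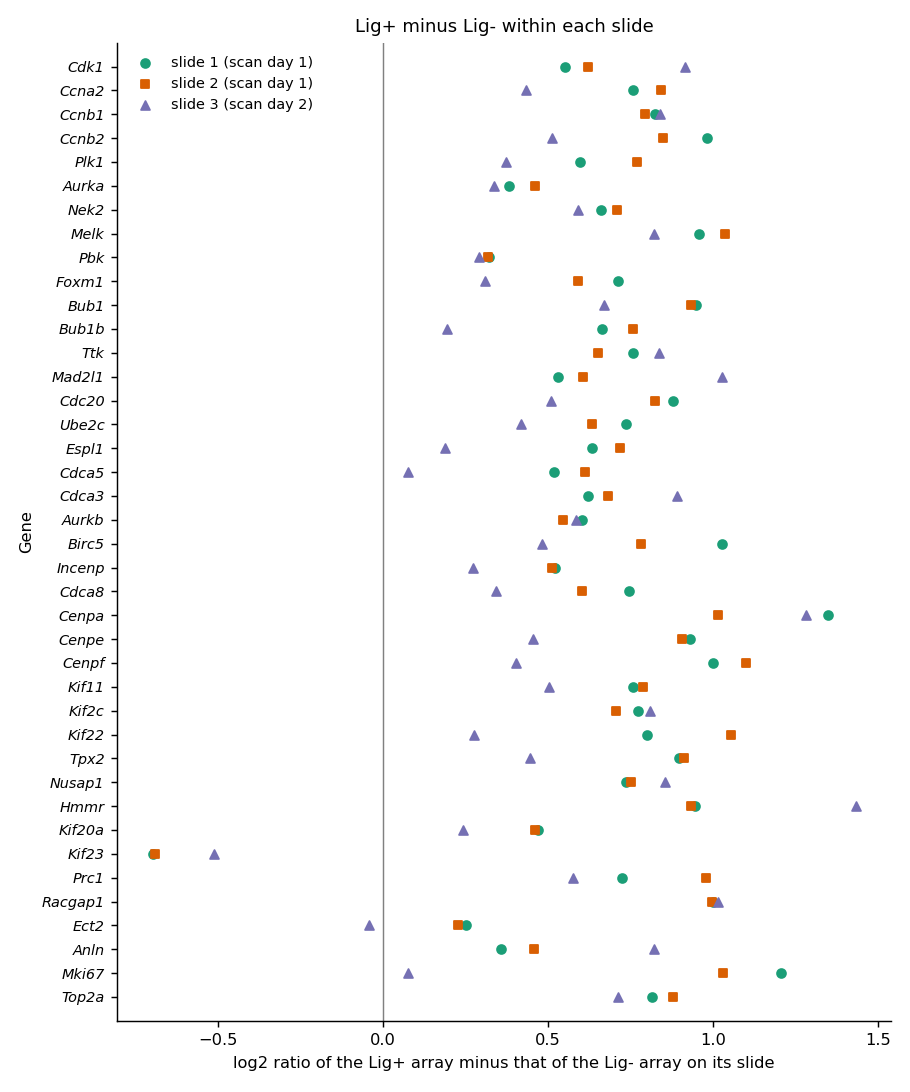
Log2 ratio of the Lig+ array minus that of the Lig- array on the same slide (horizontal axis) for the 40 mitotic genes (vertical axis), with a marker for each of slides 1 to 3. Apart from Kif23, with all 3 markers left of 0 (-0.70, -0.69 and -0.51), and Ect2 on slide 3 (-0.04), all markers lie to the right of 0.

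Of the 40 genes, 19 had more than 1 probe above the filter. Their probes had the same sign for all 19 in the comparisons that involve Lig+. Among the genes higher in Lig+ than in DN3, no dimmer probe of Espl1, Cenpf, Ect2, Kif11 or Top2a passed (adjusted p over all probes 0.052 to 0.23). The dimmer probes of Ccnb1, Cenpa, Kif20a, Racgap1 and Mki67 passed, as did a dimmer probe of Cenpe. With the mean over a gene's probes, the calls of Cenpf and Ect2 in Lig+ were lost. In Lig- against DN3 the probes of Cdca3, Cenpe, Cenpf, Ect2, Kif11 and Top2a differed in sign, with no call among them. Ect2, an exchange factor that activates RhoA for cytokinesis, differed most: its brighter probe gave 0.59 in Lig- and 0.20 between the groups, and its dimmer probe -0.17 and 0.83. For Cenpa the dimmer probe gave 0.88 in Lig+ and passed between the groups (0.69, adjusted p = 0.016 over all probes).

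Of 79 other genes of mitosis tested, 25 were higher and 4 lower in Lig+ than in DN3 (17.4% and 18.9% of all genes), with a median of 0.35. Cdc25b, the phosphatase that activates Cdk1, lay at 1.86 ± 0.16 (adjusted p = 2.6e-04), Depdc1b at 1.69 ± 0.32, Depdc1a at 1.61 ± 0.39 and Pttg1, which encodes securin, at 1.45 ± 0.19. In Lig- 7 were higher and 8 lower (16.3% and 15.0% of all genes), with a median of -0.09. Cdc25b was higher there too (1.13 ± 0.18), as was Kntc1, a checkpoint protein (1.16 ± 0.18), while Wee1, the kinase that inhibits Cdk1, was lower (-0.83 ± 0.18). Between the groups 5 were higher and 1 lower in Lig+ (4.81% and 6.97% of all genes). Smc4, a core subunit of condensin, differed by 1.51 ± 0.15 (adjusted p = 0.0027), Cep55, which acts in abscission, by 1.43 ± 0.30 (adjusted p = 0.032) and Pttg1 by 1.27 ± 0.26 (adjusted p = 0.030). Smc4 had ratios of 1.51, 0.80, 0.96 and 0.99 on the Lig+ arrays and -0.26, -0.76 and -0.23 on the Lig- arrays, so that the groups lay on either side of 0 on both scan days.

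Genes of DNA replication, which peak in S phase, were lower than in DN3 more often than higher. Of 41 tested, 1 was higher and 16 lower in Lig+ than in DN3 (17.4% and 18.9% of all genes), with a median of -0.25. In Lig- 17 were lower (15.0% of all genes), with a median of -0.46. The array medians were -0.29, -0.18, -0.04 and -0.29 on Lig+ replicates 1 to 4. On Lig- replicates 1 to 3 they were -0.60, -0.47 and -0.07, so replicate 3, of scan day 2, lay close to DN3. Mcm6, a subunit of the replicative helicase, lay at -1.06 ± 0.09 in Lig+ (adjusted p = 1.9e-04) and -0.94 ± 0.09 in Lig- (adjusted p = 6.6e-04). The gene higher in Lig+ was Rpa1, of the single-strand binding protein (0.76 ± 0.12). Between the groups 1 gene, Mcm3, was higher in Lig+ (1.08 ± 0.16, adjusted p = 0.0098) and 1, Mcm7, was lower (-0.59 ± 0.13, adjusted p = 0.035), with a median of 0.19. Over all genes 4.81% were higher and 6.97% lower. Between scan days 9 were higher on day 2 (6.81% of all genes), with a median of 0.21.

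Among 23 genes that regulate mitotic transcription, 6 were higher and 6 lower in Lig+ than in DN3 (17.4% and 18.9% of all genes). In Lig- 3 were higher and 5 lower (16.3% and 15.0% of all genes). Rb1, which encodes the retinoblastoma protein, was higher in both (1.58 ± 0.10 and 1.64 ± 0.11). Rbl2, which encodes the pocket protein p130 of the DREAM complex, was the 1 gene of this list that differed between the groups (11.8% of all genes did). It lay at 0.84 ± 0.07 in Lig+ and 2.05 ± 0.08 in Lig-. Its ratios were 0.77, 0.95, 0.74 and 0.83 on the Lig+ arrays and 2.17, 2.05 and 1.90 on the Lig- arrays, with no overlap and little change between scan days. The difference was -1.21 ± 0.10 (adjusted p = 0.0015). E2f2 (0.88 ± 0.25) and E2f8 (0.83 ± 0.23) were higher in Lig+, and Nfya, the DNA-binding subunit of NF-Y, was lower (-0.81 ± 0.12). E2f7, a repressor of the E2F family, was lower in Lig- (-1.62 ± 0.37, adjusted p = 0.019). Mybl2 did not pass in Lig+ (-0.23 ± 0.15) or in Lig- (-0.03 ± 0.16).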

How the data were processed

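The 7 2-colour arrays were analysed, 4 of Lig+ and 3 of Lig- DN4 RNA against DN3 RNA, with groups taken from the source names of the samples. Those names give DN4 for scan day 1 only, and for scan day 2 the stage was taken from the growth protocol. The deposited scanner files hold spot intensity values that Agilent Feature Extraction produced (per the file headers, version 9.5.1.1 for slides 1 and 2, 9.5.3.1 for slides 3 and 4). The log10 ratios in the table deposited by the authors equal those of the scanner files (largest difference 4.868e-08) and were used as an alternative. The DN4 RNA carried Alexa 647 on replicate 1 of each group and Alexa 555 elsewhere, per the labels.

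Mean signals and local backgrounds were read in R 4.3.3, the data.table package (version 1.17.8) and limma 3.58.1: normexp (offset 50), loess with the 1639 control spots at weight 0, outlier spots (0.354%) set missing, and spots averaged per probe. A probe entered if either channel lay well above background on 3 or more arrays, which 34889 of 41174 did. The brightest probe stood for its gene. The fit (lmFit, eBayes) had terms for Lig+, Lig- and dye, with 4 residual and 2.33 prior degrees of freedom, and Benjamini-Hochberg adjustment over 23593 genes. The dye term passed in 283 genes, 0 of them mitotic genes here. Its coefficient was nevertheless below 0 in every mitotic gene, from -0.55 for Ube2c to -0.095 for Kif23. This fit had no day term, and slide 1, the only slide of its dye orientation, was scanned on day 1. The dye term thus also took in part of the shift between scan days. The count of 0 does not show that dye had no effect on these genes. Channel levels were log2 intensity values after loess and Aquantile. The number of arrays limits the precision.

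Members and lists were chosen with earlier results of these data known. Values on every array are given for the genes with the largest and smallest ratio in Lig+ in each role group and for genes past the test between the groups; of other lists, the 4 largest ratios past the test may be named, and any regulator past it. Further genes given with fitted values, and the single genes behind counts of 1, were chosen after their values were seen. Alternatives were other background corrections, normalisations, filters and probe rules, slide and scan day as terms or blocks, each scan day alone, each group alone, and each array left out.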

Additional observations from a re-analysis of the deposited data

Results flagged for a closer look

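Kif23 met a rule for effects that differ between Lig+ and Lig-: the difference was -0.62 (limma, adjusted p = 0.016, n = 4 and n = 3 arrays), and it was below 0 on all 3 slides, whereas 39 of the 40 mitotic genes had fitted differences above 0. In each of the 40 genes the 4 Lig+ ratios were also checked for an array apart from the others. The measure was the gap to its neighbour over the whole range, and 0 genes had such an array. Chance would set apart about 5% of groups that have no split within them. Yet in 38 genes both Lig+ ratios of scan day 2 lay above both of scan day 1. That split takes up part of the range, so the check could rarely set an array apart. It does not show that the arrays agree.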

How the results depend on the processing

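The labels carry no replicate numbers, and arrays were paired by slide. With slide as a fixed block (the paired fit), 34 mitotic genes were higher in Lig+ than in Lig- in place of 0. Leaving out each array in turn, genes higher in Lig+ than in DN3 ranged from 0 to 32 (24 over all arrays), genes higher in Lig- from 1 to 2 and lower from 0 to 1, genes higher in Lig+ than in Lig- from 0 to 6 and lower from 0 to 1, and genes higher on scan day 2 from 0 to 36. With scan day as a fixed term, 39 genes were higher in Lig+ and 13 higher and 2 lower in Lig-, and 29 were higher between the groups. On scan day 1 alone 2 were lower in Lig+, 4 higher and 27 lower in Lig-, and 39 higher between the groups. On scan day 2 alone 40 were higher in Lig+ (median 1.31), 36 higher and 0 lower in Lig- (median 0.94), and 10 higher and 0 lower between the groups, and Prc1 in Lig- turned to 0.13. As a random block, slide gave 27 genes higher between the groups and scan day 10. The mean over a gene's probes gave 1. Prc1's call in Lig- left 0 genes lower with Agilent's processed signals, no background subtraction, scale normalisation, no dye term, scan day as a random block, no filter, the authors' log ratios and the Lig- arrays alone. Kif23's call between the groups left 0 with median centring in place of loess and with the authors' log ratios. The cause was not tested. Fits on 1 scan day had 1 residual degree of freedom, and where a day or omission left 1 array of a group, it is assumed to vary like the others. On scan day 1 dye and slide coincided, so p-values against DN3 in that fit leave out the spread between slides. With scan day as a fixed term, p-values against DN3 leave out the spread between slides 1 and 2 and between the days.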
